A study of Mus musculus with 40 samples.

Results

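The genes described here are 30 mouse genes of fatty acid oxidation, listed by symbol without use of any measured value. They cover the carnitine shuttle, the activation of fatty acids, the mitochondrial spiral, the enzymes for unsaturated chains, electron transfer, the peroxisomal branch, a thioesterase and 2 regulators, Ppara and Ppargc1a. The count table lists 34843 gene symbols and holds rows for 29 of the 30. Cpt1b, the muscle form of carnitine palmitoyltransferase 1, was not analysed here. Each of the 29 passed the filter on low counts and is among the 15807 genes tested.

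The libraries, 40 in all, came from subcutaneous white fat (sWAT) of mice in 5 groups of 8. The groups were mice on a normal diet (ND), mice on a high-fat diet (HFD), mice on HFD given semaglutide, mice on HFD given tirzepatide, and mice moved from HFD to ND (the diet switch). Semaglutide is a peptide agonist of the GLP-1 receptor (GLP-1 being glucagon-like peptide 1), and tirzepatide is a peptide that activates both the GLP-1 receptor and that of GIP, glucose-dependent insulinotropic polypeptide. The study asked which genes stay deregulated and which return under incretin analogs and after the change of diet. The labels give no strain, sex, age, dose or duration, and do not say whether the switched mice had received a drug before the switch. They also do not say whether each library came from a separate animal, so the p-values below measure the spread between these libraries. The 3 treated groups and ND were each compared with the same 8 HFD libraries, so those 4 comparisons share their controls.

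Fatty acids enter oxidation as acyl-CoA. Carnitine palmitoyltransferase 1 passes long chains to carnitine at the outer mitochondrial membrane, Slc25a20 carries the acylcarnitine inward, and carnitine palmitoyltransferase 2 returns the chain to CoA, after which cycles of dehydrogenation, hydration, dehydrogenation and thiolysis release acetyl-CoA. Peroxisomes shorten very long and branched chains by a parallel set of enzymes, and many genes of both branches are known targets of the nuclear receptor PPARα (Ppara) with its coactivator PGC-1α (Ppargc1a). In white fat the pathway runs alongside storage, and much of the acyl-CoA made by Acsl1 can go to either.

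Libraries held 2115471 to 7445548 counts (median 3765319.5), and the 29 genes together took 0.209 to 0.488% of them. Adipocyte markers were above 0 in every library, with a summed level of 11700 to 27500 CPM, counts scaled to library size. Muscle genes varied far more, and 10 libraries had a muscle score (mean log2 CPM of 12 muscle genes) above 5: HFD 4, ND 6 and 8, diet switch 1, 3 and 6, and tirzepatide 1, 4, 5 and 7. Within groups, the main axis of variation set 3 diet-switch libraries apart, numbers 3, 4 and 7, with scores of 80.6, 73.1 and 62.1 where the ND mean was -16.5 ± 19.4 (SD, n = 8). B cell genes were high in ND library 5 and semaglutide libraries 1, 3 and 8. Calls against HFD that were lost without these libraries are given below with their values. Since these are bulk samples, fewer cells of a type and less RNA per cell cannot be told apart.

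On HFD, 8 of the 29 genes were higher than on ND and none was lower. They were the shuttle genes Cpt1a, Slc25a20 and Slc22a5, the activating enzyme Acsl1, the mitochondrial Acadl, Acadm and Hadhb, and the peroxisomal Hsd17b4. A gene counts as changed where edgeR's quasi-likelihood test gave a Benjamini-Hochberg adjusted p under 0.05 over all genes tested. Of all genes tested, 4.5% changed in this comparison in either direction, 2.83% higher and 1.68% lower. The median log2 fold change was 0.28 over the 29 genes and -0.04 over all genes, and 21 of the 29 had a positive value. Both regulators failed the test, Ppara at -0.35 ± 0.29 (log2, SE; adjusted p = 0.577) and Ppargc1a at -0.50 ± 0.29 (adjusted p = 0.385). The call for Acadl was lost without any 1 of ND 1 to 5 or HFD 3, 5 and 8 (adjusted p up to 0.11), and that for Hadhb without any 1 of ND 1 to 5, HFD 2, 3 and 5 to 8, or semaglutide 4, 6 and 7 (up to 0.118). Both calls were also lost without the libraries high in B cell genes (Acadl 0.53, adjusted p = 0.0554, and Hadhb 0.61, adjusted p = 0.0835) and with the muscle score as a covariate (0.59, adjusted p = 0.0619, and 0.57, adjusted p = 0.136), with fold changes close to those of 0.57 and 0.63 in the full fit. The summed adipocyte markers ran from 20700 to 27500 CPM on HFD and from 11700 to 23600 CPM on ND. Of the 8 markers, Cidec and Fabp4 rose, Retn fell, and Adipoq, the adiponectin gene, stood at -0.01 ± 0.17 (log2) (adjusted p = 0.983). Of the 7 brown and beige markers, Otop1 and Dio2 rose, while the median log2 fold change of the 7 was -0.7. The part of these markers in the changes above was not tested.

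**Figure D1:**
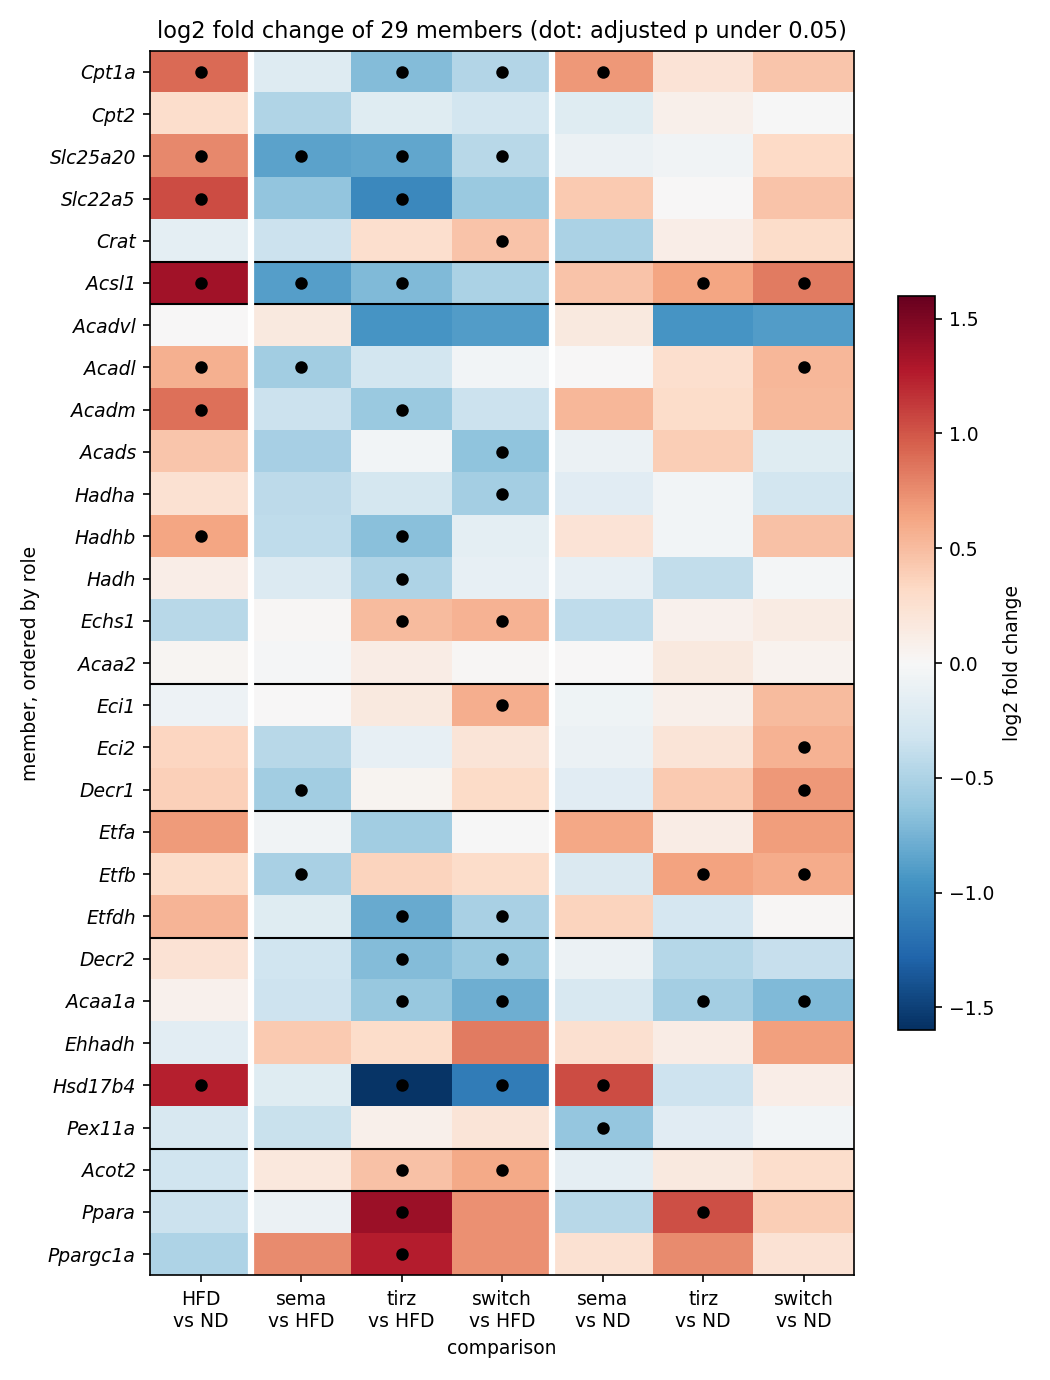
Log2 fold change (colour scale) of the 29 genes, in rows grouped by role, in 7 comparisons, in columns; a dot marks a Benjamini-Hochberg adjusted p under 0.05. The HFD column holds 8 dots, all on genes that rose, and the tirzepatide column against HFD holds 15, with Ppara and Ppargc1a at the foot positive where Cpt1a, Slc25a20 and Hsd17b4 are negative.

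With semaglutide on HFD, 5 genes were lower than on HFD alone and none was higher. They were Slc25a20, Acsl1, Acadl, Decr1 and Etfb. Genes lower in this comparison made up 2.63% of all genes tested, and genes changed in either direction 4.15%. The median log2 fold change of the 29 genes was -0.33, with 0.05 over all genes. Cpt1a was not among those that fell (-0.21 ± 0.15, adjusted p = 0.472), nor was Hsd17b4 (-0.19 ± 0.23, adjusted p = 0.699). Without the 4 libraries high in B cell genes, Slc25a20 (-0.85, adjusted p = 0.00627) and Acsl1 (-0.92, adjusted p = 0.0081) still fell. The other 3 calls were then lost, at -0.58 for Acadl (adjusted p = 0.0948), -0.48 for Decr1 (0.187) and -0.44 for Etfb (0.155), where the full fit gave -0.56, -0.56 and -0.52. They were also lost without any 1 of several single libraries: HFD 1, 3, 5, 6 and 8 and semaglutide 1, 2, 6, 7 and 8 for Acadl (adjusted p up to 0.0995), HFD 1, 3, 5 and 8 and semaglutide 1, 2, 3, 7 and 8 for Decr1 (up to 0.108), and HFD 3 and 8 and semaglutide 1, 3 and 7 for Etfb (up to 0.0948). Of the 8 adipocyte markers, Cidec fell with semaglutide, and their summed level ran from 12700 to 25500 CPM. Of the 7 brown and beige markers, Otop1 and Dio2 fell. The part of these markers in the falls was not tested.

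With tirzepatide on HFD, 11 genes were lower than on HFD alone and 4 were higher. The fallen genes were Cpt1a, Slc25a20 and Slc22a5 of the shuttle, Acsl1, the mitochondrial Acadm, Hadhb and Hadh, the electron acceptor Etfdh, and the peroxisomal Decr2, Acaa1a and Hsd17b4. The risen genes were both regulators, Ppara and Ppargc1a, the hydratase Echs1 and the thioesterase Acot2. Many more genes changed here than with semaglutide: 20.5% of all genes tested, with 10.7% lower and 9.79% higher. The median over the 29 genes was -0.28, with 0.03 over all genes. Without the 10 muscle-high libraries, which leave 4 tirzepatide and 7 HFD libraries, 9 of the 15 calls remained. Those lost were Acsl1 (-0.62, adjusted p = 0.122), Acadm (-0.43, adjusted p = 0.242), Hadhb (-0.46, adjusted p = 0.143), Hadh (-0.49, adjusted p = 0.0979), Etfdh (-0.68, adjusted p = 0.0616) and Decr2 (-0.70, adjusted p = 0.0841). With the muscle score as a covariate, Acsl1 (-0.62, adjusted p = 0.0589) and Acadm (-0.54, adjusted p = 0.064) were not called. With the within-group axis as a covariate, Echs1 (0.35, adjusted p = 0.121), Decr2 (-0.58, adjusted p = 0.0925), Acaa1a (-0.42, adjusted p = 0.0918) and Acot2 (0.43, adjusted p = 0.0603) were not called. Leaving out tirzepatide library 3 or 7 alone also ended the call for Acadm (adjusted p up to 0.0526). Of the 8 adipocyte markers, Cidec, Lpl and Fabp4 fell with tirzepatide, their summed level running from 15300 to 25900 CPM where HFD had 20700 to 27500 CPM. Of the 7 brown and beige markers, Otop1 and Dio2 fell and Ppargc1a, also one of the 29 genes, rose. The median log2 fold change of the 7 was 0.5. The part of these markers in the changes was not tested.

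After the diet switch, 8 genes were lower than on HFD and 4 were higher, in a comparison in which 23.8% of all genes tested changed, 10.9% lower and 12.8% higher. Lower were Cpt1a, Slc25a20, Acads, Hadha, Etfdh, Decr2, Acaa1a and Hsd17b4, and higher were Crat, Echs1, Eci1 and Acot2. The median was -0.13 over the 29 genes and 0.03 over all genes. Without diet-switch libraries 3, 4 and 7 only Hsd17b4 (-1.06, adjusted p = 0.0167), Acaa1a (-0.74, adjusted p = 0.015) and Acot2 (0.65, adjusted p = 0.0102) passed the test. Under that change Cpt1a stood at -0.38 (adjusted p = 0.194), Acads at -0.36 (adjusted p = 0.227) and Echs1 at 0.37 (adjusted p = 0.152). The adjusted p was then 0.0921 for Slc25a20, 0.333 for Crat, 0.23 for Hadha, 0.227 for Eci1, 0.384 for Etfdh and 0.239 for Decr2. Without the muscle-high libraries 8 calls remained, and those of Slc25a20 (-0.37, adjusted p = 0.21), Crat (0.47, adjusted p = 0.0651), Etfdh (-0.48, adjusted p = 0.139) and Decr2 (-0.59, adjusted p = 0.10) were lost. The same 4 were lost with the muscle score as a covariate (adjusted p of 0.132, 0.066, 0.103 and 0.0532). With the within-group axis as a covariate, Cpt1a (adjusted p = 0.252), Crat (0.527), Acads (0.519), Hadha (0.373) and Echs1 (0.259) were not called. Nor were Eci1 (0.446), Etfdh (0.0581), Decr2 (0.302) and Acaa1a (0.12). Single libraries ended several calls: HFD 6 or diet switch 7 that of Cpt1a (adjusted p up to 0.0629), diet switch 7 that of Eci1 (0.0564), HFD 5 or 7 or diet switch 3 or 4 that of Crat (up to 0.0709), and HFD 2 or 6 or diet switch 3, 5, 6 or 7 that of Decr2 (up to 0.0845). The calls for Slc25a20 and Etfdh, with adjusted p of 0.047 and 0.0488, were lost without any 1 of 16 and any 1 of 24 libraries, some of them in groups outside the comparison. Cidec also fell after the switch among the 8 adipocyte markers (summed level 15400 to 25200 CPM). Of 7 brown and beige markers, Cidea and Cox8b rose and Otop1 and Dio2 fell, and the summed level of the list ran from 101 to 374 CPM, with 76.8 to 195 CPM on HFD. The part of these markers in the changes was not tested.

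Set against ND, some of the 29 genes differed in each treated group. With semaglutide, Cpt1a and Hsd17b4 were higher and Pex11a was lower, where 2.64% of all genes changed (0.905% higher, 1.73% lower). With tirzepatide, Acsl1, Etfb and Ppara were higher and Acaa1a was lower, where 10.1% of all genes changed (4.3% higher, 5.77% lower). After the switch, Acsl1, Acadl, Eci2, Decr1 and Etfb were higher and Acaa1a was lower, where 14.8% of all genes changed (7.97% higher, 6.82% lower). The medians were -0.09, 0.11 and 0.29 in that order, with 0.03, 0.00 and 0.00 over all genes. Against ND none of the 6 diet-switch calls passed without diet-switch libraries 3, 4 and 7 (adjusted p of 0.0905 for Acaa1a to 0.69 for Acadl). The tirzepatide calls of Acsl1 and Acaa1a were lost without any 1 of 10 libraries (ND 1 to 5 and 7, tirzepatide 2, 5, 6 and 8; adjusted p up to 0.0836) and any 1 of 13 libraries (ND 1 to 4, 6 and 7, tirzepatide 2 to 8; up to 0.0946). Acaa1a with tirzepatide was also not called without the muscle-high libraries (adjusted p = 0.062). For Acadl after the switch, leaving out any 1 of ND 1, 2 and 4 or diet switch 3, 4 and 7 ended the call (up to 0.102).

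Cpt1a encodes the liver-type carnitine palmitoyltransferase 1, the controlled step of entry into mitochondria. Its levels ran from 19.1 to 34.5 CPM in ND (median 23.9) and from 38.2 to 62.3 CPM on HFD (median 46.5). Semaglutide libraries held 27.2 to 53.9 CPM (median 42.5) and tirzepatide libraries 21.5 to 41.7 CPM (median 29.1). After the switch the range was 26.2 to 44.7 CPM (median 34.0). Every HFD library lay above every ND library, while each treated group overlapped both. Cpt1a rose 1.87-fold on HFD (log2 0.90 ± 0.16, edgeR adjusted p = 1.25e-04). Against HFD it fell by 0.69 ± 0.16 with tirzepatide (adjusted p = 0.00144) and by 0.47 ± 0.16 after the switch (adjusted p = 0.0237). With semaglutide it stayed above ND by 0.69 ± 0.16 (adjusted p = 0.00673), and tirzepatide lay below semaglutide by -0.47 ± 0.16 (adjusted p = 0.0435). That last call was lost without any 1 of semaglutide 2 to 5, 7 and 8 or tirzepatide 1 and 6 to 8 (adjusted p up to 0.0963).

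The 2 genes below are shown because both rose on HFD with no overlap between the 8 HFD and 8 ND libraries, and because the stretch before each RefSeq start holds the letters AGGTCA, the half-site to which PPARα and related receptors bind. The sequences are from RefSeq on GRCm38.p6, read along the strand of the gene, up to 250 bases before the start and cut to the part outside annotated exons; capitals mark AGGTCA read on the other strand. Cpt1a lies on the plus strand (chr19:3322334-3385733) and its stretch, chr19:3323051-3323284, falls in an intron of the longer gene model. Acadm lies on the minus strand (chr3:153922357-153944632) and its stretch is chr3:153944644-153944893.
Cpt1a: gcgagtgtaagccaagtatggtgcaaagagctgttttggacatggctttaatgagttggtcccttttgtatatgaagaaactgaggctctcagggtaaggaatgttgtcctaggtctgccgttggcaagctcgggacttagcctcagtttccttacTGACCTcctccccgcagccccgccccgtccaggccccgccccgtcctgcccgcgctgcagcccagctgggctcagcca
Acadm: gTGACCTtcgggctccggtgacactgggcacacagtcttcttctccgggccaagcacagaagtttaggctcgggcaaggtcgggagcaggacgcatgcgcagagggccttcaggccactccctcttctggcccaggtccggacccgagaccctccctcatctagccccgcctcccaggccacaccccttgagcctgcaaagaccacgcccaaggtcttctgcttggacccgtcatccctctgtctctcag
Windows of 250 bases before the start were found for 25 of the genes, 26 windows in all, since Acsl1 has 2. AGGTCA on either strand was in 4 of the 26 (15.4%: Cpt1a, Acadm, Acadvl and Echs1) and in 14.024% of 32851 windows over all genes. Of these 4, Acadvl (log2 0.01, adjusted p = 0.993) and Echs1 (-0.44, adjusted p = 0.0848) were not called on HFD. The windows of Acsl1, which also rose on HFD without overlap, did not hold it. The direct repeat AGGTCANAGGTCA, the full PPAR element, was in none of the 26 and in 0.033% of all windows. TCAAGGTCA, the extended half-site of the estrogen-related receptors, which contains AGGTCA, was in none of the 26 and in 0.387% of all. A match is a description of the letters, and no match says only that these letters are not in the window.

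Slc25a20, the carnitine-acylcarnitine carrier of the inner membrane, ran from 24.7 to 49.7 CPM in ND (median 31.8) and from 41.9 to 78.2 CPM on HFD (median 59.5). The ranges were 23.1 to 45.5 CPM with semaglutide (median 32.7), 20.2 to 46.3 CPM with tirzepatide (median 33.8) and 31.1 to 65.6 CPM after the switch (median 39.4). HFD was the highest group, and the medians of both drug groups lay close to that of ND. The carrier rose by 0.77 ± 0.17 on HFD (log2, adjusted p = 0.00302). It fell by 0.86 ± 0.17 with semaglutide (adjusted p = 0.00136) and by 0.83 ± 0.17 with tirzepatide (adjusted p = 5.23e-04), in each case with 8 of 8 libraries below the HFD median. Slc22a5, the plasma membrane carnitine transporter, had few counts (5 to 64 per library), and its median was 4.75 CPM in ND, 10.6 on HFD, 6.68 after the switch, 7.17 with semaglutide and 4.13 with tirzepatide. It rose by 1.04 ± 0.27 on HFD (adjusted p = 0.0126) and fell by 1.03 ± 0.27 with tirzepatide (adjusted p = 0.00477). Cpt2, the inner-membrane transferase, passed the test in none of the 10 comparisons. Crat, carnitine acetyltransferase, did not pass on HFD either. After the switch it rose by 0.45 ± 0.15 against HFD (adjusted p = 0.0237), where Cpt1a and Slc25a20 fell. Crat was also 1.54-fold higher with tirzepatide than with semaglutide (adjusted p = 0.00688), with no overlap between those libraries.

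Acsl1 encodes the main long-chain acyl-CoA synthetase of fat. Its levels were 456 to 828 CPM in ND (median 601) and 995 to 2220 CPM on HFD (median 1390), with no overlap. Semaglutide libraries spread from 390 to 1470 CPM (median 733), tirzepatide libraries from 696 to 1270 CPM (median 935) and diet-switch libraries from 624 to 1700 CPM (median 1160). The treated groups lay between ND and HFD by their medians and overlapped both. On HFD Acsl1 was 2.53-fold higher than in ND (log2 1.34 ± 0.21, adjusted p = 2.71e-05), the smallest adjusted p of the 29 genes in that comparison. Against HFD it fell by 0.88 ± 0.21 with semaglutide (adjusted p = 0.00756) and by 0.71 ± 0.21 with tirzepatide (adjusted p = 0.0129), and stood at -0.51 ± 0.21 after the switch (adjusted p = 0.0653). Against ND it remained higher by 0.63 ± 0.21 with tirzepatide (adjusted p = 0.0425) and by 0.83 ± 0.21 after the switch (adjusted p = 0.00681), with 0.45 ± 0.21 with semaglutide (adjusted p = 0.28). An exon of an unnamed gene model on the opposite strand overlaps Acsl1, and the sources used here do not say whether counting used the strand. The same limit holds for Crat, Acadvl, Hadha, Echs1, Eci2, Etfdh and Acaa1a, and Etfb overlaps a model on its own strand.

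**Figure D2:**
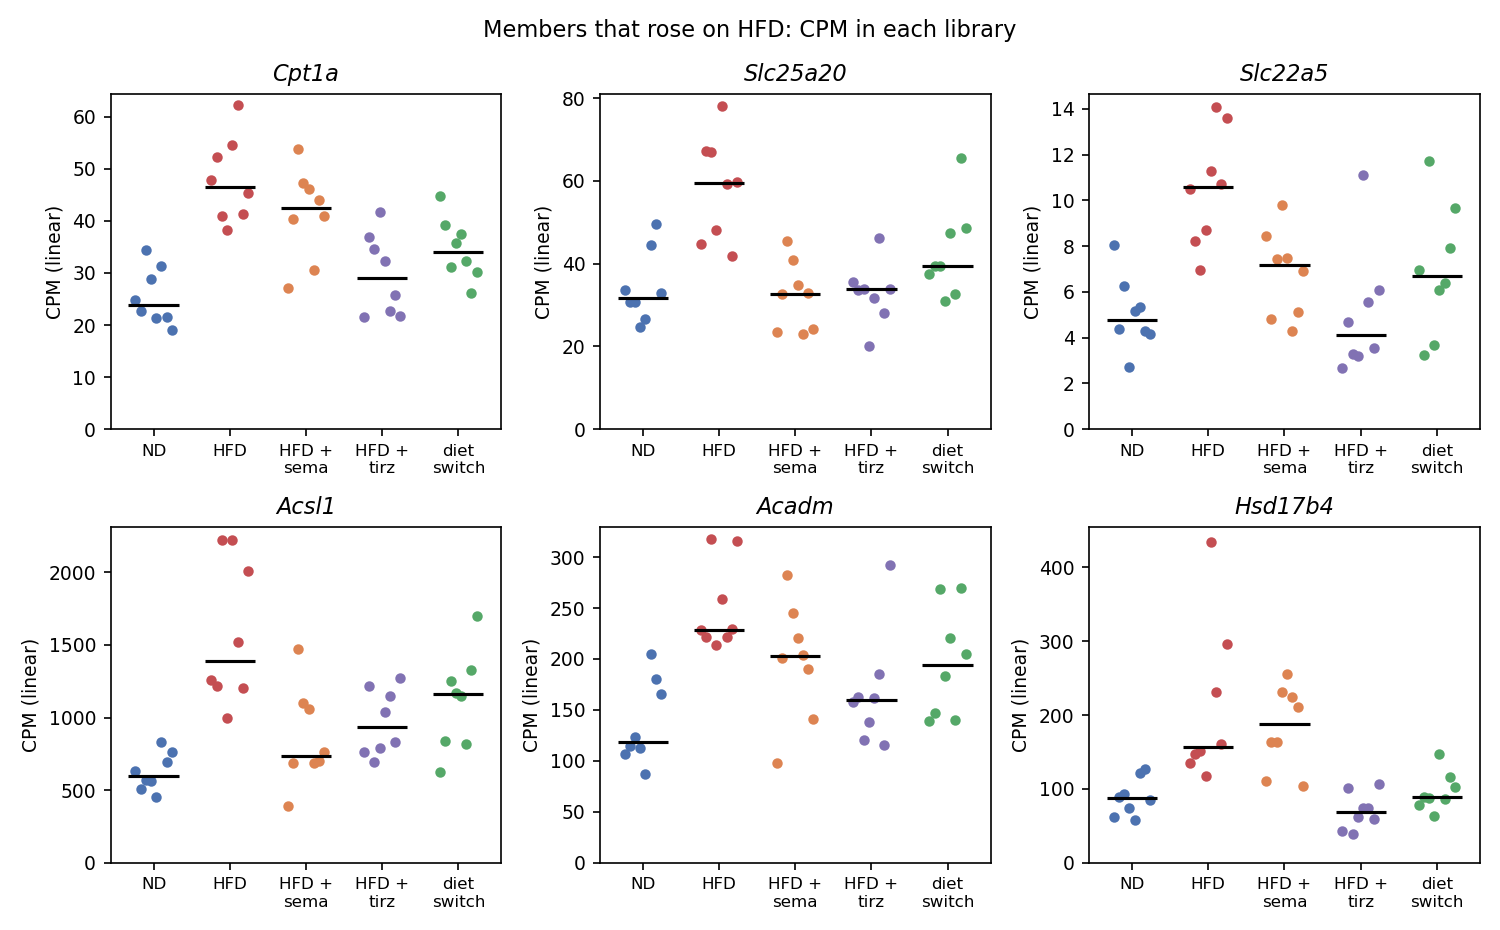
Level in each library (CPM, linear axes from 0) of 6 of the genes that rose on HFD, 1 panel a gene, with 8 libraries a group and the bar at the group median. Cpt1a, Acsl1 and Acadm show no overlap between ND and HFD, and Hsd17b4 stays high with semaglutide (median 188 CPM) and low with tirzepatide (68.4 CPM).

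Among the acyl-CoA dehydrogenases, which open each turn of the spiral for chains of a given length, the medium-chain Acadm ran from 87.5 to 205 CPM in ND (median 119) and from 214 to 318 CPM on HFD (median 229), without overlap. It rose 1.83-fold (log2 0.88 ± 0.19, adjusted p = 0.00241). The long-chain Acadl rose by 0.57 ± 0.17 on HFD (adjusted p = 0.0365), with medians of 105 CPM in ND and 161 CPM on HFD. The short-chain Acads did not pass on HFD, where it ran from 108 to 181 CPM (median 148) against 66.6 to 143 CPM in ND (median 110). Acads held 58.2 to 128 CPM with semaglutide (median 103), 96.5 to 221 CPM with tirzepatide (median 135) and 44.9 to 144 CPM after the switch (median 86.8). Its one call was the fall of 0.64 ± 0.18 after the switch (adjusted p = 0.00788), with 8 of 8 libraries below the HFD median; without diet-switch libraries 3, 4 and 7 it was not called. The very-long-chain Acadvl was counted at 2 to 41 reads per library and passed in none of the 10 comparisons, though its medians were 5.23 CPM on HFD, 2.43 with tirzepatide and 2.79 after the switch (log2 against HFD with tirzepatide -0.94 ± 0.40, adjusted p = 0.082). Exons of Acadvl overlap those of Dvl2 on the opposite strand.

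Downstream of the dehydrogenases, Echs1, the short-chain enoyl-CoA hydratase, went the other way from Cpt1a and Slc25a20 with tirzepatide and after the switch. On HFD against ND it was not called (log2 -0.44 ± 0.15, adjusted p = 0.0848). It ran from 90.8 to 173 CPM in ND (median 143), from 84.7 to 125 CPM on HFD (median 103) and from 90.0 to 128 CPM with semaglutide (median 104). The range was 97.8 to 221 CPM with tirzepatide (median 143) and 101 to 219 CPM after the switch (median 148). All groups overlapped, with HFD and semaglutide at the low end. Echs1 rose against HFD by 0.51 ± 0.15 with tirzepatide (adjusted p = 0.0122) and by 0.56 ± 0.15 after the switch (adjusted p = 0.00496), and was higher with tirzepatide than with semaglutide by 0.48 ± 0.15 (adjusted p = 0.031). The last call was lost without any 1 of semaglutide 1 and 5 to 7 or tirzepatide 6 and 8 (adjusted p up to 0.0866), and exons of Echs1 overlap those of Paox. Hadh, the short-chain hydroxyacyl-CoA dehydrogenase, fell by 0.49 ± 0.14 with tirzepatide (adjusted p = 0.0105) and passed in no other comparison, and Acaa2, the mitochondrial thiolase, passed in none.

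Hadha and Hadhb encode the α and β subunits of the mitochondrial trifunctional protein, which carries out the last 3 steps on long chains. They lie head to head on chromosome 5, Hadha on the minus strand (chr5:30118304-30155162) and Hadhb on the plus strand (chr5:30155248-30184593). The 85 bases between their GENCODE starts, chr5:30155163-30155247, are shown on the plus strand because both genes start from them; nothing is in capitals.
Hadha-Hadhb: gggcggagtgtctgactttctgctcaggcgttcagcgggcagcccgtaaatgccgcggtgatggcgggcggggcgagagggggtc
The stretch is 69.4% G and C. The 2 genes passed the test in different comparisons. Hadhb rose on HFD by 0.63 ± 0.19 (adjusted p = 0.0452) and fell with tirzepatide by 0.67 ± 0.19 (adjusted p = 0.0102), while Hadha passed in neither and fell after the switch by 0.54 ± 0.17 (adjusted p = 0.0158). The log2 ratio of Hadhb to Hadha counts averaged -1.44 ± 0.28 in ND (SD, n = 8), -1.02 ± 0.35 on HFD and -0.63 ± 0.22 after the switch, and with semaglutide it was -1.0 ± 0.29. With tirzepatide it averaged -1.50 ± 0.98 and ran from -3.16 in library 1 to -0.26 in library 5. These ratios were not tested. Tirzepatide library 1 held 350 CPM of Hadha and 39.2 CPM of Hadhb, and library 8 held 184 and 133 CPM. Exons of Hadha overlap those of Garem2 on the opposite strand. A ratio between the 2 genes also carries the length and composition of the transcript ends that this kit counts. Its level can thus not be read, and its change between libraries can carry composition too. The last 500 bases held 47.8% G and C in Hadha and 40.2% in Hadhb. Over all tested genes with a value, this share correlated with the log2 fold change at -0.30 for the switch against ND. For HFD against ND the correlation was -0.04. The part of composition in the ratios was not tested.

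**Figure D3:**
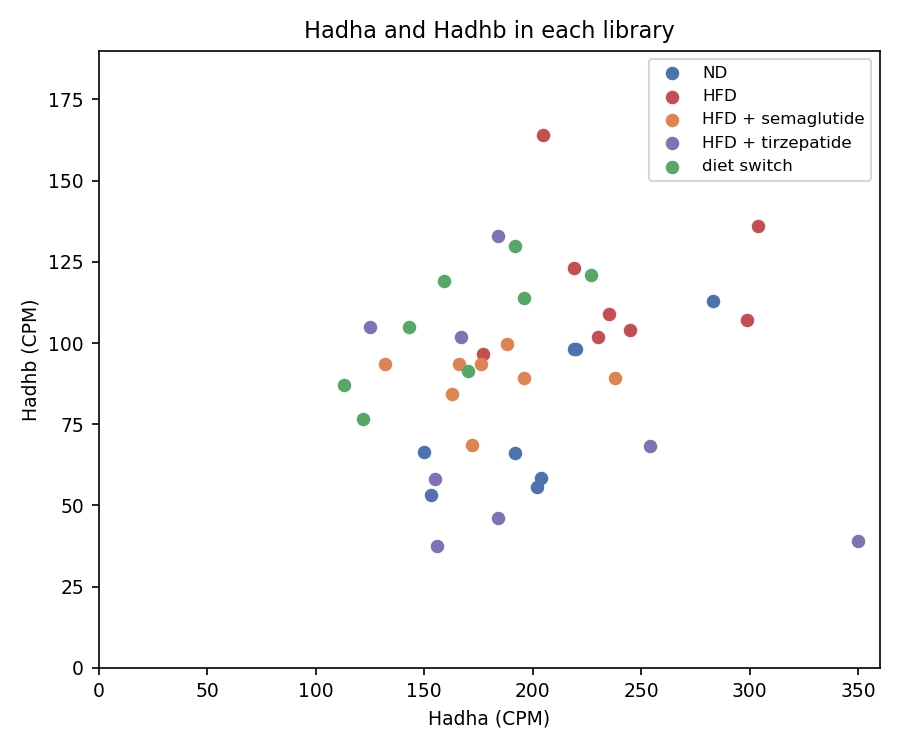
Hadhb against Hadha in each of the 40 libraries (CPM, linear axes from 0), coloured by group. Diet-switch libraries lie above most ND libraries at the same Hadha level, and the 8 tirzepatide libraries spread over Hadhb levels of 37.5 to 133 CPM.

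Listed under unsaturated chains, whose double bonds they handle, were 3 enzymes: the isomerases Eci1 and Eci2 and the reductase Decr1. None of them passed on HFD. Eci1 ran from 44.0 to 92.9 CPM in ND (median 65.0), 51.8 to 82.5 CPM on HFD (median 60.1), 44.4 to 82.4 CPM with semaglutide (median 63.6), 41.4 to 123 CPM with tirzepatide (median 57.8) and 63.4 to 126 CPM after the switch (median 91.4). The diet-switch group was the high one, 0.58 ± 0.19 above HFD (adjusted p = 0.0206), with 8 of 8 libraries above the HFD median. Decr1 ran from 62.5 to 124 CPM in ND (median 76.3), 87.2 to 168 CPM on HFD (median 109), 50.5 to 95.0 CPM with semaglutide (median 79.3), 102 to 143 CPM with tirzepatide (median 117) and 96.5 to 202 CPM after the switch (median 143). Semaglutide libraries did not overlap with either tirzepatide or diet-switch libraries. Decr1 was 1.52-fold higher with tirzepatide than with semaglutide (adjusted p = 0.0171). That call was lost without the B cell-high libraries (adjusted p = 0.0861), without the muscle-high libraries (0.0504) and with the within-group axis as a covariate (0.0753). Decr1 was also higher after the switch than in ND by 0.69 ± 0.17 (adjusted p = 0.0048). All 3 genes were lower with semaglutide than after the switch, by 0.57 for Eci1, 0.65 for Eci2 and 0.87 for Decr1 on the log2 scale (adjusted p = 0.0357, 0.0025 and 4.56e-04). In that comparison 10 of the 29 genes were lower with semaglutide and 1, Hsd17b4, was higher, where 13.3% of all genes changed (6.29% higher, 7% lower with semaglutide). The brown and beige markers Cidea and Cox8b were also lower with semaglutide in that comparison. Without diet-switch libraries 3, 4 and 7, 4 of these 11 calls remained, and without diet-switch library 4 alone 7 passed.

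Electrons from the acyl-CoA dehydrogenases pass through the flavoprotein of Etfa and Etfb to the membrane enzyme Etfdh. The genes of the 2 flavoprotein subunits differed in their calls. Etfb ran from 86.6 to 188 CPM in ND (median 118) and 127 to 228 CPM on HFD (median 140). It held 76.4 to 125 CPM with semaglutide (median 114), 154 to 242 CPM with tirzepatide (median 193) and 133 to 243 CPM after the switch (median 188). Semaglutide libraries all lay below those of HFD, tirzepatide and the switch. Etfb was 1.83-fold higher with tirzepatide than with semaglutide (log2 0.87 ± 0.15, adjusted p = 4.04e-04), and higher than in ND by 0.64 ± 0.15 with tirzepatide (adjusted p = 0.00482) and by 0.59 ± 0.15 after the switch (adjusted p = 0.00746). Etfa passed in none of the 10 comparisons and had a wide spread with tirzepatide, 15.0 to 85.6 CPM (median 26.5). Etfdh had its highest median on HFD, 51.0 CPM, with 30.3 CPM in ND and 24.6 CPM with tirzepatide, where it fell by 0.81 ± 0.20 (adjusted p = 0.00279). It was also lower with tirzepatide than with semaglutide by 0.61 ± 0.20 (adjusted p = 0.0391), a call lost without any 1 of semaglutide 3 to 8 or tirzepatide 1 to 4 and 7 (adjusted p up to 0.0919).

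In the peroxisomal branch Hsd17b4, the bifunctional enzyme for very long and branched chains, had the largest fall of the 29 genes with tirzepatide and after the switch. Levels ran from 58.0 to 127 CPM in ND (median 87.3), from 118 to 435 CPM on HFD (median 156) and from 104 to 256 CPM with semaglutide (median 188). They ran from 38.8 to 107 CPM with tirzepatide (median 68.4) and from 63.4 to 147 CPM after the switch (median 88.5). HFD and semaglutide thus formed the high groups, and no tirzepatide library reached an HFD library. Hsd17b4 rose 2.36-fold on HFD (log2 1.24 ± 0.24, adjusted p = 5.92e-04). Against HFD it fell by 1.57 ± 0.24 with tirzepatide (adjusted p = 8.74e-06) and by 1.12 ± 0.24 after the switch (adjusted p = 6.17e-04). The 2 drugs differed directly: tirzepatide lay at -1.38 ± 0.24 relative to semaglutide (adjusted p = 4.45e-04), and semaglutide stayed above ND by 1.04 ± 0.24 (adjusted p = 0.00721). The falls against HFD also passed without the muscle-high libraries (tirzepatide -1.47, adjusted p = 0.00386) and without diet-switch libraries 3, 4 and 7 (-1.06, adjusted p = 0.0167).

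Acaa1a, a peroxisomal thiolase, did not pass on HFD, with 28.6 to 84.1 CPM in ND (median 64.0) and 50.8 to 85.1 CPM on HFD (median 67.2). It held 43.9 to 68.4 CPM with semaglutide (median 53.2), 34.6 to 86.0 CPM with tirzepatide (median 37.1) and 27.0 to 53.7 CPM after the switch (median 39.6). The tirzepatide and diet-switch groups were low except for tirzepatide library 1. The falls against HFD were 0.61 ± 0.17 with tirzepatide (adjusted p = 0.0098) and 0.78 ± 0.17 after the switch (adjusted p = 0.00102). Against ND, Acaa1a fell by 0.54 ± 0.17 with tirzepatide (adjusted p = 0.0382) and by 0.71 ± 0.17 after the switch (adjusted p = 0.00562). Reads of Acaa1a can be shared with its close copy Acaa1b, and its exons overlap those of Myd88, so its value is uncertain. Decr2, the peroxisomal dienoyl-CoA reductase, fell by 0.69 ± 0.21 with tirzepatide (adjusted p = 0.0163) and by 0.60 ± 0.21 after the switch (adjusted p = 0.0323). Ehhadh, the other bifunctional enzyme, had at most 48 counts in a library and passed in none of the 10 comparisons. Pex11a, which takes part in peroxisome division, was lowest with semaglutide, at 62.2 to 99.7 CPM (median 80.2), with 74.9 to 154 CPM in ND (median 121), 80.0 to 117 CPM on HFD (median 103), 76.2 to 132 CPM with tirzepatide (median 109) and 80.9 to 147 CPM after the switch (median 122). It was lower with semaglutide than in ND by 0.62 ± 0.14 (adjusted p = 0.00721).

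Acot2, a mitochondrial thioesterase that releases the fatty acid from its CoA, ran from 46.3 to 65.9 CPM in ND (median 48.8), 31.3 to 58.3 CPM on HFD (median 41.8) and 36.4 to 63.1 CPM with semaglutide (median 44.2). It ran from 43.0 to 78.3 CPM with tirzepatide (median 57.7) and from 49.7 to 87.9 CPM after the switch (median 55.7). All 8 libraries of each of the last 2 groups lay above the HFD median. Acot2 rose against HFD by 0.47 ± 0.14 with tirzepatide (adjusted p = 0.0167) and by 0.60 ± 0.14 after the switch (adjusted p = 0.00229). Its near-copy Acot1 can share reads with it, so the value is uncertain.

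Both regulators rose with tirzepatide against HFD. Ppara, the nuclear receptor, ran from 4.30 to 24.2 CPM in ND (median 9.98), from 4.64 to 12.1 CPM on HFD (median 10.2) and from 5.70 to 13.1 CPM with semaglutide (median 7.49). Tirzepatide libraries held 15.4 to 41.9 CPM (median 22.8), above every HFD and every semaglutide library, and diet-switch libraries 8.94 to 22.7 CPM (median 15.5). Ppara was 2.59-fold higher with tirzepatide than on HFD (log2 1.37 ± 0.28, adjusted p = 4.55e-04), higher than in ND by 1.03 ± 0.28 (adjusted p = 0.0144) and higher than with semaglutide by 1.48 ± 0.28 (adjusted p = 9.76e-04). After the switch it stood 0.73 ± 0.28 above HFD (adjusted p = 0.0524), a difference that passed the threshold under 5 of 11 alternatives: DESeq2, a fit of the 2 groups alone, without the B cell-high libraries, and with the axis or a GC offset (adjusted p of 0.0234 to 0.0472). Ppargc1a, the coactivator, ran from 2.87 to 14.1 CPM in ND (median 9.58), 2.58 to 9.0 CPM on HFD (median 7.61), 6.34 to 18.4 CPM with semaglutide (median 9.99), 5.41 to 27.0 CPM with tirzepatide (median 13.2) and 6.86 to 13.1 CPM after the switch (median 10.7). Its one call was the rise against HFD with tirzepatide, 2.39-fold (log2 1.26 ± 0.28, adjusted p = 0.00133), with 7 of 8 libraries above the HFD median. After the switch it stood 0.73 ± 0.29 above HFD (adjusted p = 0.0568), which passed under 3 of 11 alternatives (DESeq2, the 2 groups alone and the replicate block; adjusted p of 0.0331 to 0.0466). Both tirzepatide rises passed without the muscle-high libraries (Ppara 1.32, adjusted p = 0.00727; Ppargc1a 1.56, adjusted p = 0.00448). Ucp1, the brown fat uncoupler, ran from 0 to 7.89 CPM with tirzepatide and from 0 to 1.5 CPM on HFD and was not called (adjusted p = 0.144). Of the 7 brown and beige markers tested, Ppargc1a rose with tirzepatide, and Otop1 and Dio2 fell, with a median log2 fold change of 0.5 against HFD.

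**Figure D4:**
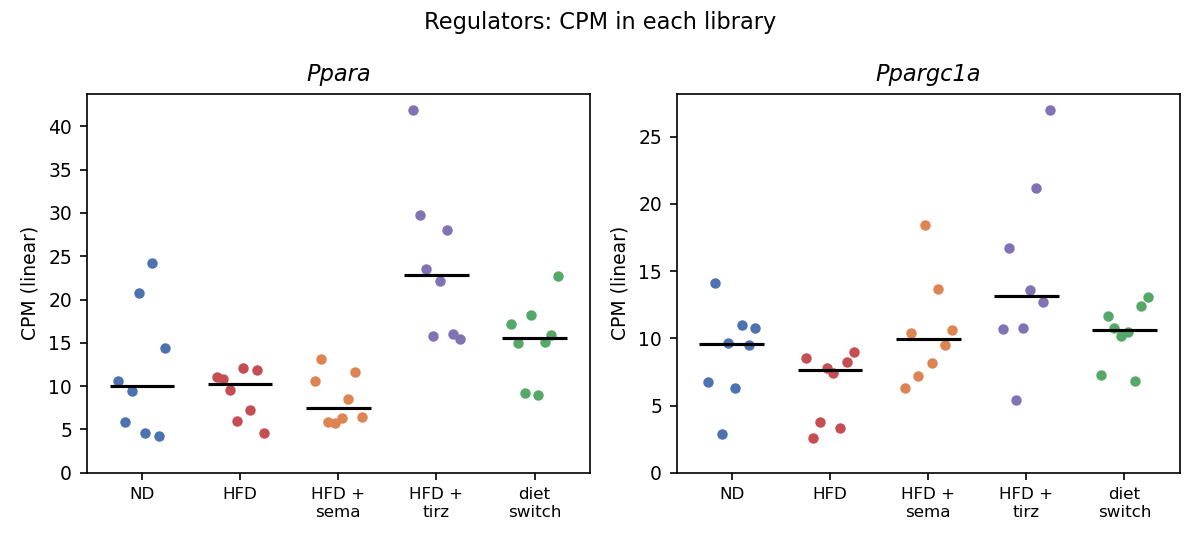
Level of Ppara and Ppargc1a in each library (CPM, linear axes from 0), with 8 libraries a group and the bar at the group median. For Ppara all 8 tirzepatide libraries (15.4 to 41.9 CPM) lie above all 8 HFD libraries (4.64 to 12.1 CPM), while the Ppargc1a groups overlap.

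Compared directly, tirzepatide and semaglutide differed in 9 of the 29 genes, where 10% of all genes changed, 4.11% higher and 5.92% lower with tirzepatide. Etfb, Ppara, Crat, Decr1, Echs1 and Pex11a were higher with tirzepatide, and Hsd17b4, Etfdh and Cpt1a were lower. The call for Pex11a (0.44 ± 0.14, adjusted p = 0.0391) was lost without any 1 of semaglutide 1, 3 and 6 to 8 or tirzepatide 1, 2, 6 and 8 (adjusted p up to 0.0776). Without the B cell-high libraries 4 calls remained, and without the muscle-high libraries 5. With the muscle score as a covariate Cpt1a, Etfdh and Pex11a were not called (adjusted p of 0.0771, 0.101 and 0.0695). Between tirzepatide and the diet switch none of the 29 genes passed, where 0.399% of all genes changed. There 8 of the 29 had an unadjusted p under 0.05, and DESeq2 also called none. The median log2 difference was -0.19 over the 29 genes and -0.03 over all genes. For Ppara that difference was 0.64 ± 0.27 (adjusted p = 0.291) and for Hsd17b4 -0.45 ± 0.24 (adjusted p = 0.416), so differences of that size were not detectable here.

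Skeletal muscle oxidizes fatty acids and lies close to this depot, so the genes were set against muscle RNA in the libraries. Acta1, skeletal actin, ran from 6.98 to 1210 CPM and Ckm, muscle creatine kinase, from 0.455 to 368 CPM over the 40 libraries. Ckm had medians of 12.5 CPM in ND, 1.71 on HFD, 8.31 after the switch, 1.34 with semaglutide and 70.8 with tirzepatide. Neither Acta1 nor Ckm passed the test in any of the 10 comparisons, but Myh1, Myh2 and Atp2a1 rose with tirzepatide against HFD, Myh1 rose after the switch against HFD, Myh1 and Atp2a1 were higher with tirzepatide than with semaglutide, and Myh1 and Myh2 fell on HFD against ND. Summed muscle markers ran from 29.2 to 3320 CPM with tirzepatide and from 39.8 to 1100 CPM on HFD. In a fit with the muscle score beside the groups, edgeR called 77 genes (0.487% of those tested) by their slope on the score, among them all 12 genes of the score and 0 of the 29. Those 12 genes make up the score, so their slopes were set in advance and do not show what the test can detect. For the 29, 0 calls is close to the share over all genes. At an unadjusted p under 0.05 there was 1, Ehhadh, with a slope of -0.21 log2 units per unit of the score, and 11 of the 29 slopes were positive. With the score in the fit, 6 of the 8 calls on HFD passed, all but Acadl and Hadhb. The calls lost in other comparisons are given above, except that of Ppara for semaglutide against the switch (adjusted p = 0.0826). The largest shift of any of the 29 in a log2 fold change was 0.54, for Ehhadh on HFD.

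**Figure D5:**
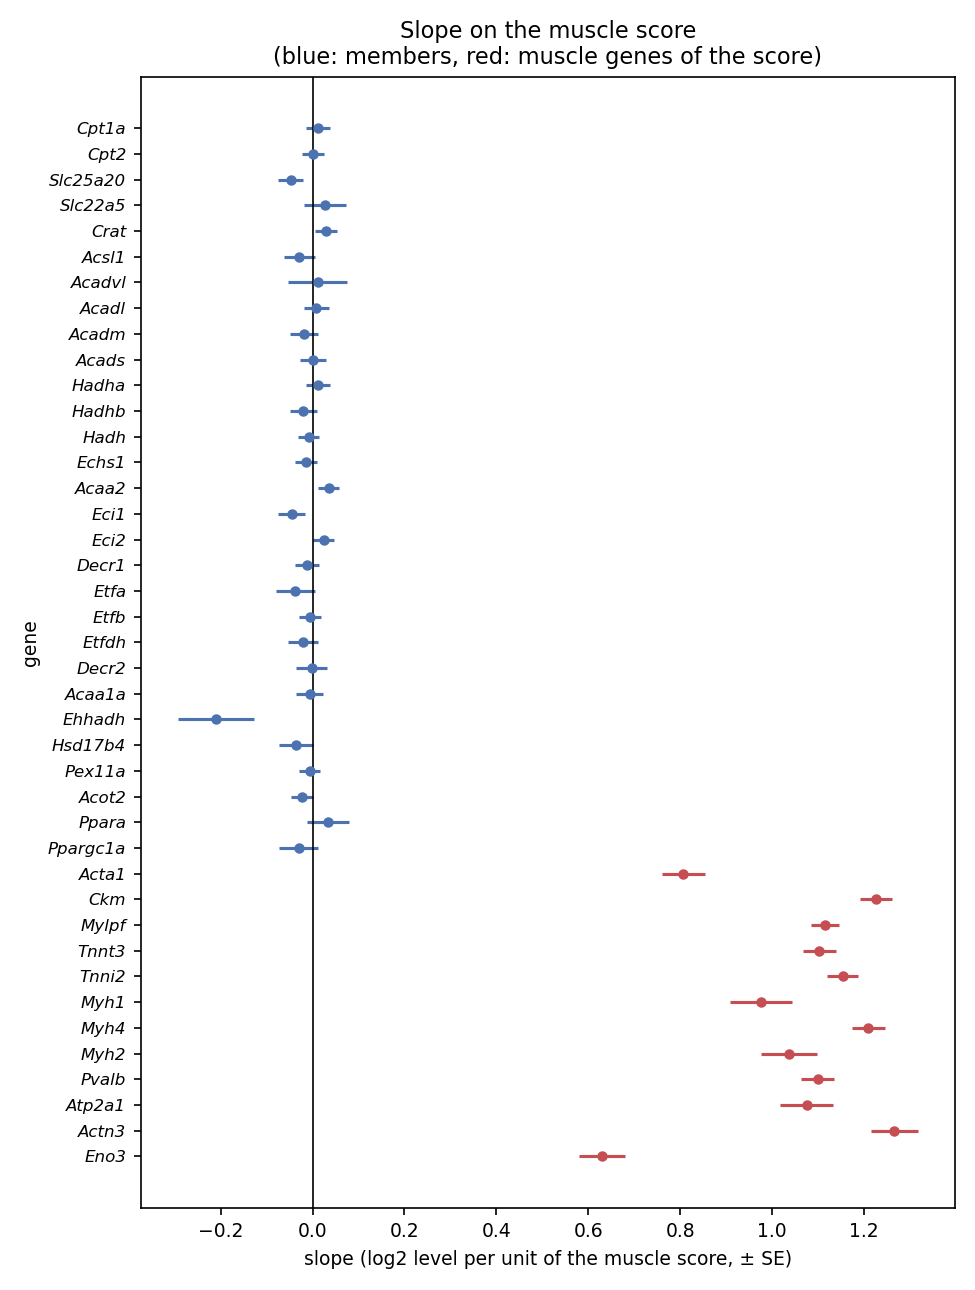
Slope of each gene on the muscle score within groups (log2 level per unit of the score, with SE bars), for the 29 fatty acid oxidation genes in blue and the 12 muscle genes of the score in red. The blue points lie near 0, with Ehhadh lowest at -0.21, and the red points lie well above them, as the score is the mean of those 12 genes.

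A further 54 genes of the pathway that are not among the 30 were read from the same fit, and 50 of them passed the filter. On HFD 4 of the 50 rose and 2 fell, where 4.5% of all genes changed (2.83% higher, 1.68% lower). Plin5, a lipid droplet coat protein that meets mitochondria, went from a mean of 6.21 ± 2.83 CPM in ND (SD, n = 8) to 19.8 ± 7.55 CPM (log2 1.66 ± 0.27, adjusted p = 3.74e-05), with no overlap. Angptl4, a secreted inhibitor of lipoprotein lipase and a known PPAR target, rose by 1.07 ± 0.22 (adjusted p = 0.00117). Acacb, the carboxylase whose product malonyl-CoA inhibits carnitine palmitoyltransferase 1, fell from 100 ± 24.7 to 41.5 ± 15.8 CPM (log2 -1.26 ± 0.23, adjusted p = 2.52e-04). Cpt1a and Acacb thus moved in opposite directions on HFD.

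In the treated groups, 3 of the 50 rose and 4 fell with semaglutide against HFD, 5 rose and 9 fell with tirzepatide, and 6 rose and 5 fell after the switch. Of all genes tested, 4.15%, 20.5% and 23.8% changed in these comparisons in turn. With semaglutide the genes that fell included Plin5 (log2 -1.18 ± 0.26, adjusted p = 0.00359), Angptl4 (-0.87 ± 0.22, adjusted p = 0.013) and Nudt7, a peroxisomal CoA hydrolase (-0.69 ± 0.16, adjusted p = 0.00439). With tirzepatide, Nrip1, a corepressor of nuclear receptors, rose from 142 ± 36.4 to 351 ± 75.9 CPM (log2 1.30 ± 0.17, adjusted p = 4.41e-07). Acat1, the mitochondrial acetoacetyl-CoA thiolase, fell by 1.01 ± 0.20 (adjusted p = 2.83e-04). After the switch Nrip1 rose by 1.20 ± 0.17 (adjusted p = 2.26e-06) and Acacb by 1.29 ± 0.23 (adjusted p = 6.71e-05), while Ucp2, a mitochondrial carrier, fell by 1.25 ± 0.26 (adjusted p = 5.87e-04).

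Against ND the counts of these 50 genes were 1 higher and 2 lower with semaglutide, 4 and 4 with tirzepatide, and 4 and 1 after the switch, where 2.64%, 10.1% and 14.8% of all genes changed in turn. Acacb stayed low with semaglutide, at 34.2 ± 15.4 CPM (log2 against ND -1.55 ± 0.23, adjusted p = 1.37e-05), where Ppard was also lower (-0.64 ± 0.17, adjusted p = 0.0325). Direct comparison put Acacb 1.27 ± 0.23 higher with tirzepatide than with semaglutide (adjusted p = 6.77e-04). Plin5 and Nrip1 stayed above ND with tirzepatide (1.20 ± 0.27, adjusted p = 0.00283, and 0.76 ± 0.17, adjusted p = 0.00289) and after the switch (1.23 ± 0.27, adjusted p = 0.00239, and 0.66 ± 0.17, adjusted p = 0.00822).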

How the data were processed

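The values are raw read counts by gene symbol in 40 libraries, as the authors deposited them. RNA extraction used Nucleozol and library preparation the LexoGen QuantSeq kit, which reads transcript ends, with sequencing on a HiSeq 4000, per the labels' protocols. The build was mm10, per the submitters' processing notes. What aligner, counter and annotation were used, and whether strand was, is not given in the sources used here. A second, normalized table was left aside, and its 16 columns that match no sample were left out.

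Counts were filtered with filterByExpr (15807 genes, 99.39% of counts), scaled with TMM and fitted over all 5 groups with the robust quasi-likelihood model of edgeR 4.0.16 in R 4.3.3. Adjusted p-values are Benjamini-Hochberg over all genes tested. Levels are CPM on TMM-scaled totals. Standard errors of fold changes were taken as the absolute log2 value divided by √F. No 2 libraries of a group were copies (smallest chi-square per degree of freedom 3.99). The muscle score is the mean log2 CPM (prior count 2) of 12 of 14 listed muscle genes. Coordinates and transcript ends came from GENCODE M21 on GRCm38, and sequences from RefSeq. The procedure was tested on simulated data. The simulated libraries did not differ in muscle RNA, B cell RNA, GC or the within-group axis, so that test does not cover such differences.

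Given with their spread are, per comparison against HFD or ND, up to 3 called genes with the smallest adjusted p in each direction, and always Cpt1a, Ppara and Ppargc1a. Of the other pathway genes, up to 4 per comparison are named, and some are not reported here. The genes, lists and rules were chosen with earlier results of these data known. The alternatives tried were a test with DESeq2 1.42.0, DESeq2 size factors within edgeR, no filter, a fit of the 2 groups alone, a replicate block, the muscle score as a covariate, and leaving out muscle-high, B cell-high, 3 diet-switch or single libraries. A GC offset and the main within-group axis as a covariate were chosen after seeing the data.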

Additional observations from a re-analysis of the deposited data

Results flagged for a closer look

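In 10 of 145 sets of 8 libraries, each set being 1 gene in 1 group, the highest or lowest library lay far from the rest (by Dixon's ratio of the gap to the range). Chance flags about 1 in 20 such groups, and 6.9% were flagged here. Among semaglutide libraries, Cpt2 was high in library 4 at 94.1 CPM (next 65.2), Acadvl low in library 3 at 1.35 CPM (next 4.23), Hadhb low in library 2 at 68.7 CPM (next 84.3), Decr1 low in library 1 at 50.5 CPM (next 73.7) and Ehhadh high in library 3 at 6.09 CPM (next 2.38). With tirzepatide, Acaa2 was low in library 5 at 69.8 CPM (next 106) and Acaa1a high in library 1 at 86.0 CPM (next 46.0). After the switch Etfa was low in library 4 at 36.0 CPM (next 53.5). In ND Acaa1a was low in library 5 at 28.6 CPM (next 63.3) and Ehhadh was at 0 in library 4 (next 1.47 CPM).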

How the results depend on the processing

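Signs were checked in the comparisons against HFD or ND and in that of tirzepatide with semaglutide. Over 11 alternatives and 40 fits without 1 library, 0 of the called log2 fold changes in these reversed. For semaglutide against the switch this was not checked. With semaglutide against HFD (5 called), 2 were called with no filter, 8 with only the 2 groups fitted and 2 without the B cell-high libraries. With tirzepatide against HFD (15), 9 were called without the muscle-high libraries. After the switch against HFD (12), 3 were called without diet-switch libraries 3, 4 and 7, and 7 with the first axis of variation within groups as a covariate, of which 3 were among the 12. Against ND, tirzepatide (4) gave 2 with no filter and 2 with the axis, and the switch (6) gave 0 without diet-switch libraries 3, 4 and 7 and 0 with the axis. Tirzepatide against semaglutide (9) gave 5 with no filter, 5 without the muscle-high and 4 without the B cell-high libraries. Semaglutide against the switch (11) gave 7 with no filter, 4 without diet-switch libraries 3, 4 and 7, and 7 with the axis. The axis scored libraries with group differences kept, so as a covariate it can also remove part of a group difference. Fewer libraries or more genes tested also change these counts; other causes were not tested.

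Leaving out 1 library gave 6 to 8 calls for HFD against ND, 14 to 17 for tirzepatide and 8 to 13 for the switch against HFD, and 3 to 4 for semaglutide against ND. Semaglutide against HFD gave 2 to 7, moved by over 1.5 times without HFD 1, 3, 5 or 8 or semaglutide 1, 2, 3, 7 or 8. Tirzepatide against ND gave 2 to 4 (moved without ND 1, 2, 3, 4 or 7 or tirzepatide 2 or 5), the switch against ND 5 to 11 (ND 6), tirzepatide against semaglutide 5 to 10 (semaglutide 7), semaglutide against the switch 7 to 12 (diet switch 4), and tirzepatide against the switch 0 to 1 (tirzepatide 8 or diet switch 2). The slope on the muscle score was called for 0 of the genes in all its alternatives.

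Over 80 pairs of libraries with the same replicate number, the median correlation of deviations was 0.031, and 18 exceeded 0.1. Pairs with different numbers were not set beside them, so whether the numbers pair the libraries was not tested. With the replicate block, the switch against ND called 12 in place of 6, and no other count moved by over 1.5 times.

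Ehhadh, Acadvl and Slc22a5 had few counts, so modest differences in them were not detectable at this depth. Ppara and Ppargc1a were also low, with 17 to 51 and 11 to 33 counts per HFD library, so the same limit holds for them.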

Other observations

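The kit reads transcript ends, and the base composition of those ends varied among the genes. The last 500 bases held 32.2% G and C in Acadl, 33.8% in Etfa and 34.6% in Acsl1, and 59.2% in Acads, 56.8% in Acaa1a and 55.4% in Etfb. Across the 29 genes, the correlation of this share with the log2 fold change was -0.55 for the switch against ND and -0.50 for semaglutide against ND, where over the 15125 tested genes with a value it was -0.30 and -0.18. For HFD against ND it was -0.29 over the 29 genes and -0.04 over all. These are correlations across genes of the same libraries, given as a description. With a GC offset in the fit, 9 genes were called for HFD against ND. The offset ended the calls of Acadl (0.29, adjusted p = 0.155) and Acaa1a (-0.41, adjusted p = 0.0598) for the switch against ND, Etfb for semaglutide against HFD (-0.46, adjusted p = 0.114), Slc25a20 for the switch against HFD (-0.43, adjusted p = 0.0638) and Cpt1a for tirzepatide against semaglutide (-0.43, adjusted p = 0.071).

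The first axis of variation within groups also separated groups: its mean was -17.8 ± 19.0 on HFD (SD, n = 8), 15.2 ± 19.0 with tirzepatide, -7.9 ± 14.6 with semaglutide and 27.0 ± 42.4 in the diet-switch group. With the axis as a covariate the HFD rises of Cpt1a, Slc25a20, Slc22a5, Acsl1, Acadl, Acadm, Hadhb and Hsd17b4 all passed the test. For tirzepatide against HFD the covariate ended the calls of Echs1 (adjusted p = 0.121), Decr2 (0.0925), Acaa1a (0.0918) and Acot2 (0.0603), and for the switch against ND it ended all 6. For the switch against HFD it left only those of Slc25a20, Hsd17b4 and Acot2 among the calls of the full fit. For tirzepatide against ND it ended those of Acsl1 (0.453), Etfb (0.054) and Acaa1a (0.291).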
